A study of Mus musculus with 11 samples.

Results

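Imprinted genes are transcribed mainly from the copy inherited from the mother or mainly from the copy inherited from the father, and many of them set how far an embryo and its placenta grow. Paternally expressed genes of this kind (Igf2, Dlk1, Peg3, Mest, Plagl1) tend to promote growth, and several maternally expressed ones (H19, Igf2r, Cdkn1c, Grb10) tend to restrain it. Meg3 is a maternally expressed long non-coding RNA from the same chromosomal cluster as Dlk1. Many of these genes are active in embryonic cells and are turned down in most tissues after birth. The genes described here are those 10 imprinted growth regulators, taken as the probe sets whose platform annotation names such a gene as its only symbol. By this rule 9 of the 10 genes had a probe set, 1 each, out of 19937 genes with a symbol of their own on the array, and all 9 probe sets passed the filter on low values. H19 had none. Its transcript was followed with 2 probe sets, called A and B here, which the annotation gives no symbol (A) or the symbols Mir675 and Supt6 (B). They take the name H19 only from the gene table of the study for p53 knockdown, which was itself chosen on these samples, so H19 stands outside every count of members and its change with p53 siRNA is a description and not independent evidence.

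The samples were mouse embryonic fibroblasts (MEF LSL) from a C57BL/6 x 129/SvJ background, homozygous for a p53 allele that a removable stop cassette keeps silent. In all groups p53 had been restored with AdenoCre virus (24 h, multiplicity of infection 5), and all groups received 150 nM doxorubicin, a DNA-damaging drug, for 12 h before RNA was taken. They differed in the transfected oligonucleotide, which was p53 siRNA (3 arrays), control siRNA (3 arrays), a pool of antisense oligonucleotides (ASO) against the p53-induced long non-coding RNA Pint (3 arrays) or control ASO (2 arrays). There was no group without doxorubicin and none without p53 restoration, and the labels do not say whether the arrays of a group stem from separate cultures, and p-values therefore cover only the spread of these arrays, which may be technical. Levels are log2 RMA values. A call is an adjusted p under 0.05 (limma, Benjamini-Hochberg over 26038 probe sets).

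Pint (Lncpint) was the check on the ASO arm. Its level was 8.60, 8.48 and 8.55 on the Pint ASO arrays, against 10.41 and 10.23 with control ASO. It fell by 1.78 ± 0.119 on the log2 scale (SE, limma adjusted p = 2.94e-05). Lncpint read 9.13, 9.02 and 9.06 with p53 siRNA, against 9.43, 9.88 and 9.53 with control siRNA (-0.54 ± 0.106, adjusted p = 0.00673). It was also higher with control ASO than with control siRNA, by 0.71 ± 0.119 (adjusted p = 0.0137). The p53 mRNA itself was not analysed here. Whole arrays of the same group correlated at 0.991 to 0.995 and arrays of different groups at 0.971 to 0.991. All 12 fibroblast markers passed the filter on low values, and 0 of 12 lay under 6 on every array. Of the markers of other cell types with a probe set, those under 6 on every array were 2 of 5 for liver (Alb, Ttr), 2 of 5 for macrophages and blood (Ptprc, Adgre1), 1 of 5 for epithelium (Epcam), 1 of 6 for endothelium (Emcn), 2 of 4 for trophoblast (Psg17, Tpbpa), 1 of 5 for adipocytes (Adipoq), 1 of 5 for neural cells (Dcx) and 2 of 8 for skeletal muscle (Myf5, Myh3), and the others exceeded 6 on at least 1 array. The fibroblast markers also moved with the knockdowns. Of the 12, 7 were higher with p53 siRNA and 0 lower, and with Pint ASO 9 were lower and 0 higher. Of all probe sets tested, 7.97% were higher with p53 siRNA and 10.7% lower with Pint ASO. Their summed linear level was 81360 to 82250 on p53 siRNA arrays, against 71600 to 73090 on control siRNA arrays, and 58050 to 60080 on Pint ASO arrays, against 68900 to 69310 on control ASO arrays. Sums over markers of other cell types also separated the groups, with no test run on them. The summed linear level of those of macrophages and blood was 942.9 to 981 with p53 siRNA, against 1635 to 1728 with control siRNA, and 1251 to 1300 with Pint ASO, against 1611 to 1638 with control ASO. For endothelium it was 615.9 to 662.4 with p53 siRNA, against 585.8 to 606.7 with control siRNA, and 761.4 to 800.5 with Pint ASO, against 601.9 to 658.3 with control ASO. For epithelium it was 1181 to 1194 with p53 siRNA, against 1218 to 1287 with control siRNA, and 907.3 to 977.7 with Pint ASO, against 1038 to 1074 with control ASO. The trophoblast sum was also lower in both knockdowns without overlap, the neural sum was lower with p53 siRNA, and with Pint ASO the sums for skeletal muscle (1653 to 1782, against 1476 to 1616 with control ASO) and, narrowly, liver (462.4 to 515.5, against 382.8 to 462.1 with control ASO) were higher. A linear sum follows its brightest genes, and few single genes were called. Of those tested, 1 of 3 for macrophages and blood and 1 of 4 for epithelium were lower in each knockdown. So was 1 of 2 for trophoblast. For endothelium 0 of 5 were called with p53 siRNA and 1 of 5 was higher with Pint ASO. For neural cells 1 of 4 was lower with p53 siRNA. With Pint ASO, 1 of 6 for skeletal muscle was higher and 1 lower, and 0 of 3 for liver were called. The part of these markers in the changes described here was not tested.

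Imprinted growth genes differed in both knockdowns, and Dlk1 was the only one called in both, in opposite directions. With p53 siRNA, Mest, Grb10, Dlk1, Igf2 and Peg3 were higher and Igf2r lower, so that 6 of 9 members passed the test, where 16.9% of all probe sets did (7.97% higher and 8.96% lower). With Pint ASO, Meg3, Dlk1 and Cdkn1c were lower and Plagl1 higher, which is 4 of 9, where 19.1% of all probe sets did (8.49% higher and 10.7% lower). The median log2 difference of the members was 0.23 with p53 siRNA and -0.15 with Pint ASO, beside medians of 0.0053 and 0.0037 over all probe sets tested. The member levels ranged from 59.1% to 147% of control, and in bulk RNA fewer cells of a type and less RNA per cell cannot be told apart. At B over 3, the stricter threshold of the study, 0 of the 9 members remained with p53 siRNA, and Meg3 and Dlk1 remained with Pint ASO.

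**Figure D1:**
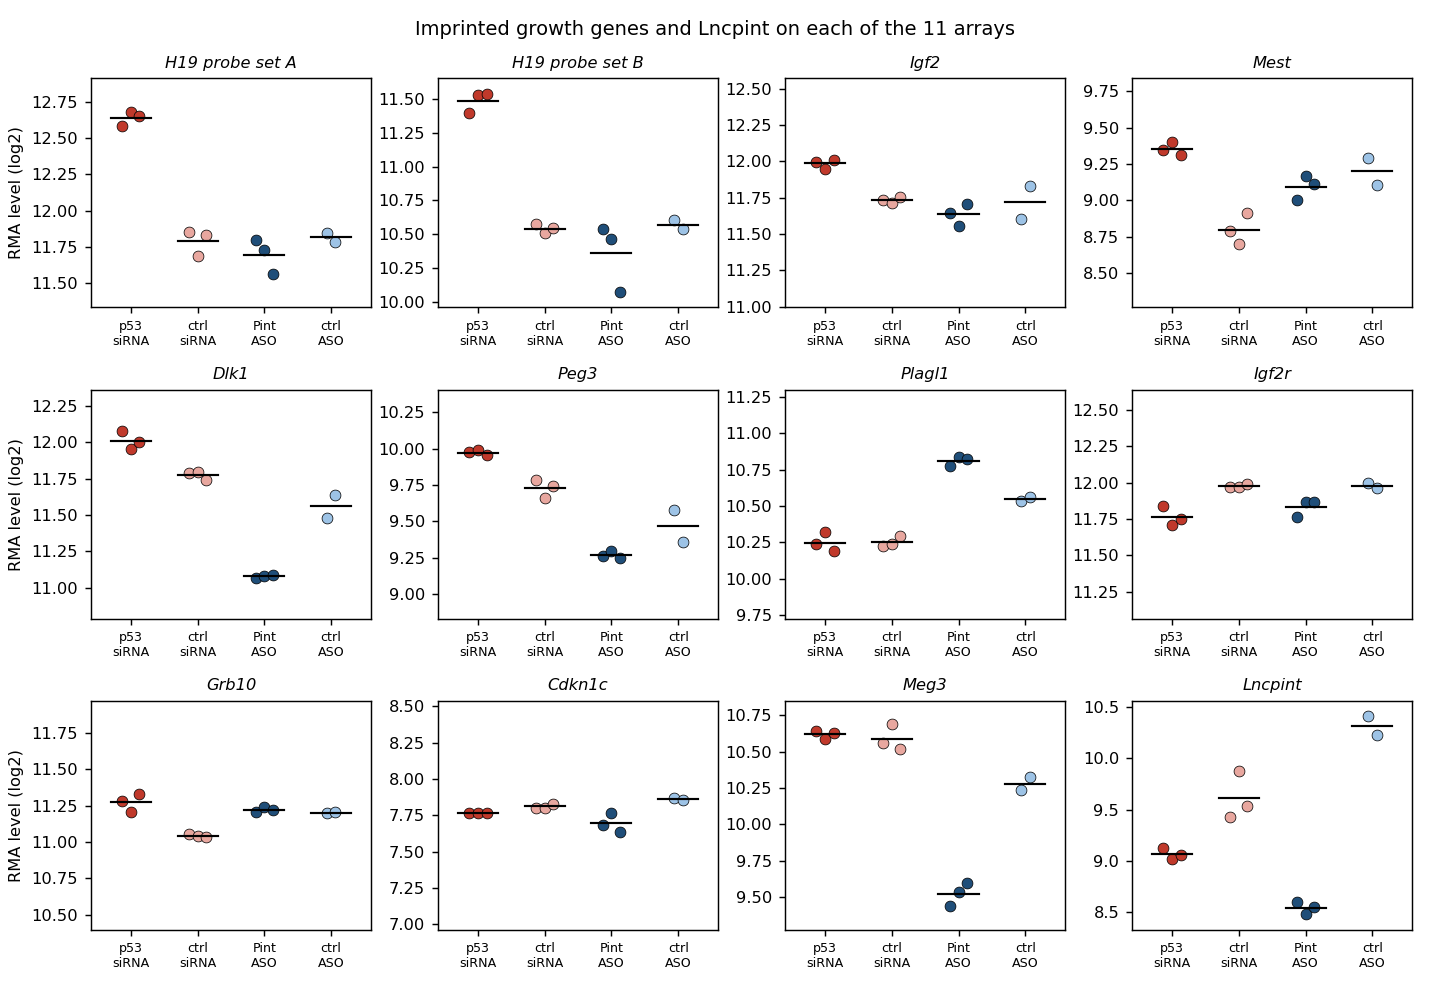
Log2 RMA level (y axis, each panel at least 1.5 units high) of the 9 imprinted growth genes, the 2 H19 probe sets and Lncpint on every array, grouped along the x axis as p53 siRNA, control siRNA, Pint ASO and control ASO. Points are arrays and lines are group means. Mest is set apart by p53 siRNA and Meg3 and Dlk1 by Pint ASO, with no overlap between knockdown and control arrays. The H19 probe sets, chosen by their p53 siRNA values, also show no overlap with p53 siRNA.

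The 2 H19 probe sets were higher with p53 siRNA. This is a description, since they were chosen from the study's gene table for that knockdown. H19 is a long non-coding RNA that shares an enhancer and an imprinting control region with Igf2 and is the host of the microRNA miR-675. Probe set A read 12.58, 12.68 and 12.65 on p53 siRNA arrays, against 11.85, 11.69 and 11.84 on control siRNA arrays. Probe set B read 11.40, 11.53 and 11.54 on p53 siRNA arrays, against 10.57, 10.51 and 10.54 on control siRNA arrays. On both, every p53 siRNA array lay above every control siRNA array, where the 2 groups did not overlap in 35.7% of all probe sets tested. The differences were 0.84 ± 0.0705 for A and 0.95 ± 0.107 for B (SE), or 180% and 193% of the control level. The same probe sets with Pint ASO differed by -0.12 (adjusted p = 0.366) and -0.21 (adjusted p = 0.285), with overlapping groups, and on B the lowest value was that of the third Pint ASO array, at 10.07 beside 10.54 and 10.47. Probe set B is annotated with Mir675, and the mature arms of this microRNA, with bases 2 to 8 (the seed, which pairs with target mRNAs) in capitals, are given because they lie in the H19 transcript.
mmu-miR-675-5p: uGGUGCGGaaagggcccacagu
mmu-miR-675-3p: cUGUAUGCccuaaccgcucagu
The array does not separate these mature molecules from the long H19 RNA.

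Mest, which encodes a membrane protein with a hydrolase fold and is also known as Peg1, was the member that changed most with p53 siRNA. Its level was 9.35, 9.40 and 9.31 on p53 siRNA arrays, against 8.79, 8.70 and 8.91 on control siRNA arrays, with no overlap. The difference was 0.55 ± 0.0735 (adjusted p = 0.000679), or 147% of control. Mest also differed between the 2 controls, since control ASO arrays read 9.29 and 9.11, which is 0.40 ± 0.0822 above control siRNA (adjusted p = 0.0298), a call lost under 7 of 23 alternatives. Grb10, an adaptor protein that dampens insulin and IGF receptor signalling, read 11.28, 11.21 and 11.33 with p53 siRNA, against 11.06, 11.04 and 11.04 with control siRNA. It rose by 0.23 ± 0.0431 (adjusted p = 0.00521). The p53 siRNA calls of Mest and Grb10 were also made under each other filter, normalization, eBayes setting, replicate block and left-out array that was run, with B over 3 the exception.

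Igf2, the fetal growth factor of this group, Peg3, a zinc finger protein, and Dlk1, a transmembrane protein that holds back adipocyte differentiation, rose with p53 siRNA by similar amounts. Igf2 read 12.00, 11.95 and 12.01 on p53 siRNA arrays, against 11.73, 11.72 and 11.75 on control siRNA arrays, a difference of 0.25 ± 0.0641 (adjusted p = 0.0249). Peg3 read 9.97, 9.99 and 9.95 on p53 siRNA arrays, against 9.78, 9.66 and 9.74 on control siRNA arrays, a difference of 0.24 ± 0.0603 (adjusted p = 0.0219). Dlk1 read 12.08, 11.95 and 12.00 on p53 siRNA arrays, against 11.79, 11.79 and 11.74 on control siRNA arrays, a difference of 0.24 ± 0.0536 (adjusted p = 0.0140). In all 3 genes the groups did not overlap, as in 7 of the 9 members and in 35.7% of all probe sets tested. These calls lay close to the threshold. That of Igf2 was lost without any of the 6 siRNA arrays (adjusted p 0.0505 to 0.0811), that of Peg3 without control siRNA 2 or 3 or any p53 siRNA array (0.0544 to 0.0776), and that of Dlk1 without control siRNA 3 (0.0555) or p53 siRNA 1 (0.0518).

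Igf2r, the receptor that takes IGF2 to the lysosome and so removes it, was the only member lower with p53 siRNA. It read 11.84, 11.71 and 11.75 on p53 siRNA arrays, against 11.97, 11.97 and 11.99 on control siRNA arrays, a difference of -0.21 ± 0.0484 (adjusted p = 0.0159). The call was lost without control siRNA 3, p53 siRNA 2 or p53 siRNA 3 (0.0568 to 0.0639). With Pint ASO it read 11.77, 11.87 and 11.87, against 12.00 and 11.97 with control ASO, which did not pass the test (-0.15 ± 0.0541, adjusted p = 0.0926), although the groups did not overlap. Cdkn1c, Meg3 and Plagl1 were not called with p53 siRNA, their differences being -0.04, 0.03 and -0.0036.

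**Figure D2:**
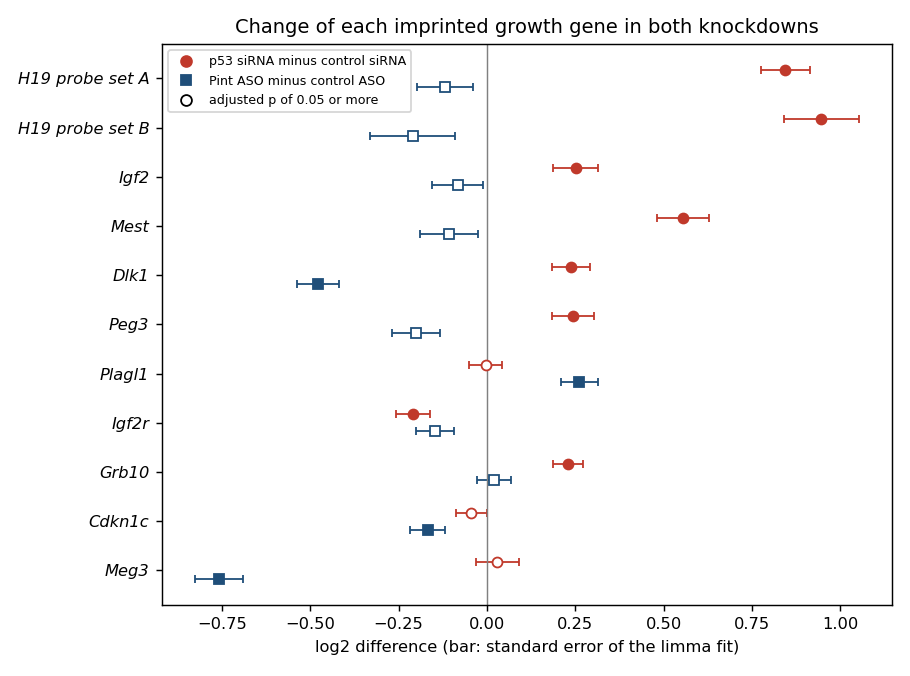
Log2 difference (x axis) of each imprinted growth gene and both H19 probe sets (y axis), for p53 siRNA minus control siRNA (circles) and Pint ASO minus control ASO (squares), with the standard error of the limma fit as bars and open symbols for an adjusted p of 0.05 or more. Dlk1 is the only member called in both knockdowns, at 0.24 with p53 siRNA and -0.48 with Pint ASO.

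With Pint ASO the largest changes among the members were those of the neighbours Meg3 and Dlk1. Meg3 read 9.44, 9.53 and 9.59 on Pint ASO arrays, against 10.23 and 10.33 on control ASO arrays. It fell by 0.76 ± 0.0673 on the log2 scale (adjusted p = 0.000107), to 59.1% of control. Dlk1 read 11.07, 11.08 and 11.09 on Pint ASO arrays, against 11.48 and 11.64 on control ASO arrays. It fell by 0.48 ± 0.0599 (adjusted p = 0.000634), to 71.8% of control. The groups did not overlap for either gene, as in 6 of 9 members and in 40.4% of all probe sets tested, and neither call was lost under any alternative that was run. Meg3 was also lower with control ASO than with control siRNA, by 0.31 ± 0.0673 (adjusted p = 0.0373), a call lost under 14 of 23 alternatives, among them the omission of any control array. For Dlk1 that control difference was -0.22 (adjusted p = 0.0854).

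Plagl1 and Cdkn1c are both known as brakes on the cell cycle, and they moved in opposite directions. Plagl1, a zinc finger transcription factor that in mouse regulates other imprinted genes, read 10.77, 10.83 and 10.83 on Pint ASO arrays, against 10.54 and 10.56 on control ASO arrays. The difference was 0.26 ± 0.0520 (adjusted p = 0.00727), and of the alternatives run the call was lost with the ASO arm fitted alone (0.0697) and at B over 3. Plagl1 was also higher with control ASO than with control siRNA, by 0.30 ± 0.0520 (adjusted p = 0.0156), a call lost under 6 of 23 alternatives. Cdkn1c, which encodes the inhibitor p57 of cyclin-dependent kinases, read 7.69, 7.77 and 7.63 on Pint ASO arrays, against 7.87 and 7.86 on control ASO arrays. The difference was -0.17 ± 0.0488 (adjusted p = 0.0399). This call was lost under 19 of 24 alternatives, with adjusted p up to 0.220, among them the omission of either control ASO array (0.109 and 0.149), of Pint ASO 1 (0.0931) or of Pint ASO 3 (0.0977). The probe set of Cdkn1c resolved little, since 4 arrays carried the identical value 7.77, all 3 p53 siRNA arrays among them.

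No call was made for the remaining members with Pint ASO. Peg3 read 9.26, 9.30 and 9.25 on Pint ASO arrays, against 9.58 and 9.36 on control ASO arrays (-0.20 ± 0.0674, adjusted p = 0.0700), and without control ASO 2 it did pass (-0.31, adjusted p = 0.0177). Mest read 9.0, 9.17 and 9.12 on Pint ASO arrays, against 9.29 and 9.11 on control ASO arrays (-0.11, adjusted p = 0.447). Igf2 read 11.65, 11.55 and 11.71 on Pint ASO arrays, against 11.61 and 11.83 on control ASO arrays (-0.08, adjusted p = 0.505). Grb10 was nearly the same on all 5 ASO arrays, at 11.20, 11.24 and 11.22 with Pint ASO, against 11.20 and 11.20 with control ASO (0.02 ± 0.0482, adjusted p = 0.830).

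The effects of the 2 knockdowns were then set against each other directly, as the effect of Pint ASO minus that of p53 siRNA. Of the 9 members 6 differed, 5 lower and 1 higher, where 18.5% of all probe sets did (9.15% higher and 9.4% lower). The effect of Pint ASO was below that of p53 siRNA for Meg3 (-0.79 ± 0.0904, adjusted p = 0.000323), Dlk1 (-0.72 ± 0.0803, adjusted p = 0.000284), Mest (-0.66 ± 0.110, adjusted p = 0.00271), Peg3 (-0.44 ± 0.0905, adjusted p = 0.00786) and Igf2 (-0.33 ± 0.0961, adjusted p = 0.0393). It was above it for Plagl1 (0.26 ± 0.0697, adjusted p = 0.0269). The difference for Igf2 was lost under 12 of 23 alternatives and that for Plagl1 under 8 of 23. For Igf2 the omission of control ASO 2 alone took it to -0.22 (adjusted p = 0.138). For the H19 probe sets the values were -0.96 and -1.16, given as a description because the p53 siRNA values by which they were chosen enter the difference. Between control ASO and control siRNA, 3 of 9 members differed (Mest and Plagl1 higher, Meg3 lower), where 4.02% of all probe sets did (2.29% higher and 1.73% lower), and for 7 of 9 the 2 control groups did not overlap, where 32.6% of all probe sets did not.

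The promoter windows of Meg3 and Dlk1, the 2 genes that fell together with Pint ASO, and of Mest, the member that rose most with p53 siRNA, are given to show the sequence at these starts. They are RefSeq windows (build GRCm38.p6) of 250 bases before to 50 after an annotated start, and where a gene has several starts the window with the most CpG dinucleotides is shown, with each CpG, the target of the DNA methylation that marks imprinted control regions, in capitals.
Meg3 promoter window, chr12:109540746-109541045, + strand: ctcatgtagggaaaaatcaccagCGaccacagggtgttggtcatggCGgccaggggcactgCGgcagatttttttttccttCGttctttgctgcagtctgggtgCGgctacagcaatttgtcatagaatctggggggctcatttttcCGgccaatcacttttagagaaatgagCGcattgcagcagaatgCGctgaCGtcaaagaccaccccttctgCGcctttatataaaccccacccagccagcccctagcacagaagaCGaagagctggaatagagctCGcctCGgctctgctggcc
Dlk1 promoter window, chr12:109452573-109452872, + strand: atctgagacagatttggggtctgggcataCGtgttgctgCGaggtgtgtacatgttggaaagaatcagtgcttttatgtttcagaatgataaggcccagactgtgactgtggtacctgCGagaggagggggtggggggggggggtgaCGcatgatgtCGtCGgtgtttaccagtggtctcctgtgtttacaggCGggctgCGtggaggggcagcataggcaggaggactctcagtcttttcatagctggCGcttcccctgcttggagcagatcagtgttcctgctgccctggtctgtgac
Mest promoter window, chr6:30737800-30738099, + strand: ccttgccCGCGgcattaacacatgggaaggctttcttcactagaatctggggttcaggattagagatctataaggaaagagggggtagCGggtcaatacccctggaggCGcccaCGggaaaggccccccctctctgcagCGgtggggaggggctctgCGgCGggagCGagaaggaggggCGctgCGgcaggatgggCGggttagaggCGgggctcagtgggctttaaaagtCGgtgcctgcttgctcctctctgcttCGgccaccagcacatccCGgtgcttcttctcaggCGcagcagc
The Meg3 window holds 13 CpG, the Dlk1 window 9 and the Mest window 17, and 37.9%, 45.8% and 31.4% of all 32851 windows hold at least as many. These shares are over single windows, but those of Meg3 and Mest were picked as the richest, so their shares run low. Another Meg3 window holds 1 CpG and another Mest window 8. Windows were found for 8 of the 10 genes, and the richest were those of Grb10 (45 CpG) and Igf2r (34 CpG). The sequence TGACGTCA, the known binding site of the CREB and ATF factors, occurs in the windows of Meg3 and Peg3 and in 1.79% of all windows (both strands searched). In the Meg3 window TATAAA occurs at 2 overlapping positions, 1 on each strand, and 13.6% of all windows hold it. GGGGCCCC occurs in the Peg3 window and in 1.08% of all windows. A p53 half-site occurs in 1 of the 4 Igf2 windows, in no other window of a member and in 8.36% of all windows. The arrays say nothing on methylation or on factors bound there.

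Meg3 and Dlk1 lie in an imprinted cluster on chromosome 12 that ends at Dio3, the gene of a deiodinase that inactivates thyroid hormone. Downstream of Meg3 the maternal copy gives rise to Rian, which hosts small nucleolar RNAs, and to Mirg, which hosts a large group of microRNAs. The stretch from Dlk1 to Dio3 was taken up after the values of its microRNAs had been seen. It has 48 genes with a probe set, of which 29 passed the filter. With Pint ASO 12 of the 29 were lower and 1, Dio3, was higher, and with p53 siRNA 5 were higher and 0 lower. Over all probe sets tested, 10.7% were lower and 8.49% higher with Pint ASO, and 7.97% higher and 8.96% lower with p53 siRNA. Of the 27 with values over 6 in every group, 10 were lower with Pint ASO. Their median difference was -0.17 with Pint ASO and 0.11 with p53 siRNA, over all 29 genes tested.

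The falls with Pint ASO were not spread evenly along the cluster. From the start of Meg3, the microRNA genes Mir673, Mir337, Mir540, Mir665, Mir431, Mir127, Mir341 and Mir370 at 31.0 to 77.3 kb were not called, with differences between -0.14 and 0.11, and neither were Rtl1 (-0.04) and Rian (-0.24 ± 0.0896, adjusted p = 0.102). All 9 called microRNA genes lay at 171.5 to 202.4 kb, namely Mir323, Mir329, Mir300, Mir382, Mir134, Mir668, Mir485, Mir377 and Mir369, and other microRNA genes of the same stretch such as Mir666 (0.03) and Mir667 (0.03) were not called. Mir377 read 6.73, 6.91 and 6.75 on Pint ASO arrays, against 8.05 and 7.81 on control ASO arrays. It fell by 1.13 ± 0.133 (adjusted p = 0.000453). Mir382 read 7.45, 7.67 and 7.27 on Pint ASO arrays, against 8.35 and 8.33 on control ASO arrays. It fell by 0.88 ± 0.116 (adjusted p = 0.000844).

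Mir134 read 8.38, 8.39 and 8.56 on Pint ASO arrays, against 8.88 and 8.98 on control ASO arrays, a difference of -0.48 ± 0.0644 (adjusted p = 0.000892). Mir300 read 5.44, 5.38 and 5.27 on Pint ASO arrays, against 6.16 and 5.84 on control ASO arrays (-0.63, adjusted p = 0.0149), and like Mir369 it passed the filter only through groups where it was higher. Of these 4 microRNA genes only Mir134 was called with p53 siRNA, at 9.28, 9.22 and 9.26, against 9.02, 9.06 and 9.02 with control siRNA (0.22 ± 0.0576, adjusted p = 0.0271), a call lost without any of the 6 siRNA arrays (0.0536 to 0.0855). The call of Mir300 with Pint ASO was lost without control ASO 1 (-0.48, adjusted p = 0.122). DQ267102 starts at 115.3 kb, downstream of the start of Rian at 62.9 kb, and whether it lies within Rian was not examined. DQ267102 fell by 0.75 with Pint ASO (adjusted p = 0.000708) and rose by 0.31 with p53 siRNA (adjusted p = 0.0373). It was also lower with control ASO than with control siRNA (-0.44, adjusted p = 0.0373). Over the list of microRNA genes of imprinted loci drawn up for these genes, 6 of the 18 with values over 6 in every group were lower with Pint ASO and 0 higher. Of the 129 other microRNA genes tested, with no such limit on level, 6 were lower and 2 higher. The shares over all probe sets were 10.7% lower and 8.49% higher.

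**Figure D3:**
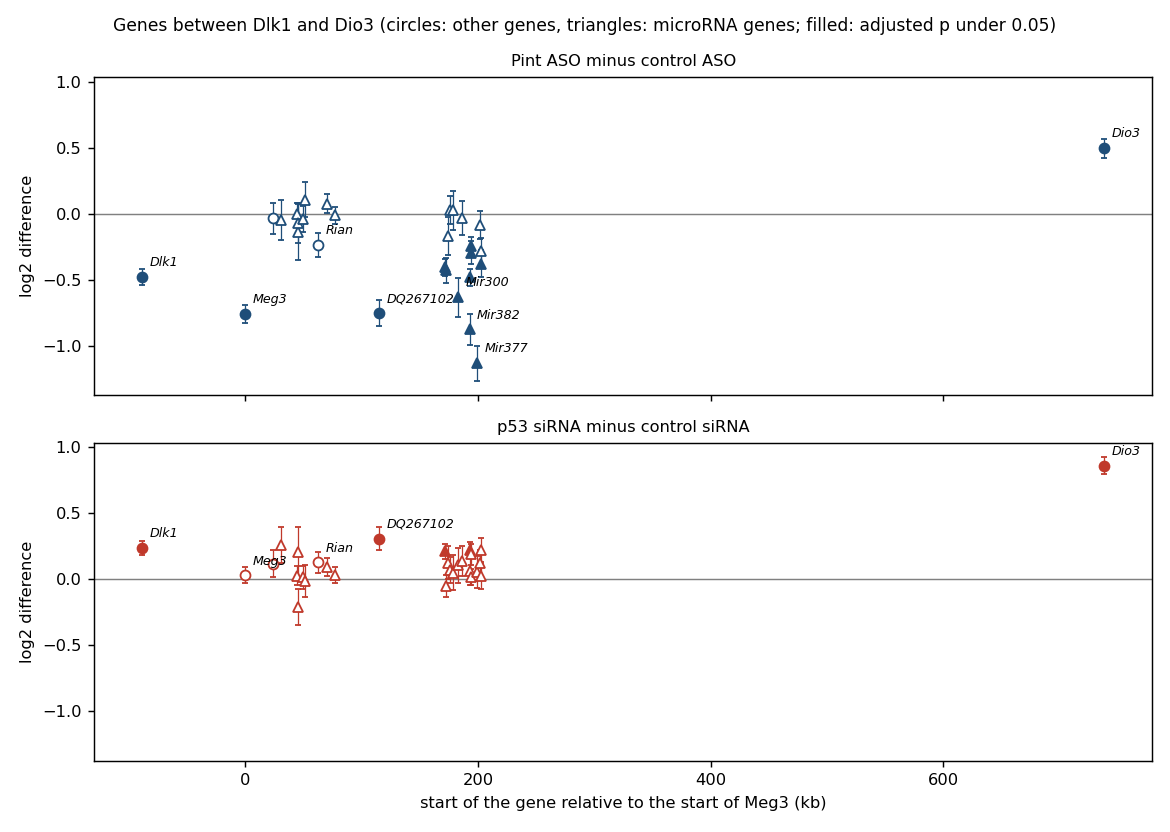
Log2 difference (y axis) of the 29 genes tested from Dlk1 to Dio3 against the distance of the gene's start from that of Meg3 in kb (x axis), for Pint ASO minus control ASO (upper panel) and p53 siRNA minus control siRNA (lower panel). Triangles are microRNA genes, circles are other genes, filled symbols have an adjusted p under 0.05 and bars are standard errors. With Pint ASO the filled symbols below 0 are Dlk1, Meg3, DQ267102 and 9 microRNA genes at 171.5 to 202.4 kb. Of these, Mir300 and Mir369 passed the filter only through groups where they were higher.

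The mature arms of the 4 microRNA genes with the largest falls are printed with their seeds (bases 2 to 8) in capitals, so that it can be seen whether they could read the same targets (RefSeq, build GRCm38.p6).
mmu-miR-377-5p: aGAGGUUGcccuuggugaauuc
mmu-miR-377-3p: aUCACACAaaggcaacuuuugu
mmu-miR-382-5p: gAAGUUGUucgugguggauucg
mmu-miR-382-3p: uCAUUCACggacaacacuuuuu
mmu-miR-300-5p: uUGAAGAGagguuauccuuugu
mmu-miR-300-3p: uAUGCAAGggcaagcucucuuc
mmu-miR-134-5p: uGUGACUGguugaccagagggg
mmu-miR-134-3p: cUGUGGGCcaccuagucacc
No seed was shared among them, and the 17 arms of all 9 called microRNA genes carry 17 different seeds. Outside the cluster, miR-377-5p shares its seed with miR-672-5p and miR-134-3p shares its seed with miR-3620-5p. A probe set over a microRNA gene measures whatever transcript covers the hairpin, so the values cannot tell the mature microRNA from its long precursor.

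Dio3, at the other end of the cluster, rose in both knockdowns, by 0.86 ± 0.0652 with p53 siRNA (adjusted p = 2.47e-05) and by 0.49 ± 0.0729 with Pint ASO (adjusted p = 0.00152). Its direction was thus opposite to that of Meg3 and Dlk1 with Pint ASO, whereas with p53 siRNA Dio3 and Dlk1 were both higher and Meg3 was not called (0.03, adjusted p = 0.799). Neighbours of other members were read from the same lists. Copg2, which lies beside Mest, fell by 0.30 with p53 siRNA (adjusted p = 0.00332) and by 0.43 with Pint ASO (adjusted p = 0.000821), while Klf14 of the same cluster was not called in either (0.09 and 0.02). Mest lies on chromosome 6, where the paper also places Pint, the target of the ASO. The distance of these genes from Pint was not examined, and whether it bears on the fall of Copg2 was not tested. Airn, the non-coding RNA that runs antisense to Igf2r, fell by 0.24 with p53 siRNA (adjusted p = 0.0478), a call lost under 18 of 24 alternatives, 10 of them the omission of 1 array, with adjusted p up to 0.148. Where the probes of Igf2r and Airn overlap was not examined. Zim1 from the cluster of Peg3 and Phlda2 from that of Cdkn1c were not called in either knockdown. Phlda2 was higher with control ASO than with control siRNA (0.44, adjusted p = 0.0196), a call lost under 5 of 23 alternatives.

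IGF signalling is the pathway in which Igf2, Igf2r and Grb10 act, and its other genes were read from a list. Binding proteins hold IGF1 and IGF2 in the extracellular space, and the proteases PAPPA, PAPPA2 and HTRA1 cut binding proteins. Of the 21 genes tested of a list of 22, 7 were higher and 1 lower with p53 siRNA, and 3 were higher and 9 lower with Pint ASO. Among all probe sets the shares were 7.97% higher and 8.96% lower with p53 siRNA, and 8.49% higher and 10.7% lower with Pint ASO. Igf1, the ligand related to Igf2, rose by 0.42 with p53 siRNA (adjusted p = 0.00294) and fell by 0.50 with Pint ASO (adjusted p = 0.00231), although it was also lower with control ASO than with control siRNA, by 0.47 (adjusted p = 0.0137). The receptors Igf1r and Insr were not called in either knockdown.

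The binding proteins Igfbp2, Igfbp3, Igfbp4 and Igfbp6 were higher with p53 siRNA and lower with Pint ASO. Igfbp3 rose by 1.001 ± 0.0623 with p53 siRNA (adjusted p = 8.19e-06) and fell by 0.45 ± 0.0697 with Pint ASO (adjusted p = 0.00202). It was also lower with control ASO than with control siRNA (-0.30, adjusted p = 0.0477), a call lost under 14 of 23 alternatives. Igfbp4 rose by 0.61 with p53 siRNA and fell by 0.29 with Pint ASO (adjusted p = 0.0141), where the call was lost without control ASO 2 (adjusted p = 0.0964) or with the ASO arm fitted alone (adjusted p = 0.110). Between the controls Igfbp4 differed by -0.35 (adjusted p = 0.0220), a call lost under 5 of 23 alternatives. Igfbp5 was called only with Pint ASO (-0.68 ± 0.116, adjusted p = 0.00333), and the difference between the knockdowns was itself called (-0.89, adjusted p = 0.00359). With the ASO arm fitted alone the Pint ASO calls of Igfbp5 (adjusted p = 0.0533) and Igfbp6 (adjusted p = 0.0532) were lost. Among the proteases, Pappa fell by 0.65 ± 0.0680 with Pint ASO (adjusted p = 0.000238), with 0.08 (adjusted p = 0.476) for p53 siRNA, and Htra1 rose by 0.37 with p53 siRNA and fell by 0.33 with Pint ASO. Irs2, an adaptor of the insulin and IGF1 receptors, rose by 0.52 ± 0.0509 with Pint ASO (adjusted p = 0.000179), while Irs1 was not called (-0.02). Irs2 was also higher with control ASO than with control siRNA (0.24, adjusted p = 0.0313), a call lost under 10 of 23 alternatives.

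**Figure D4:**
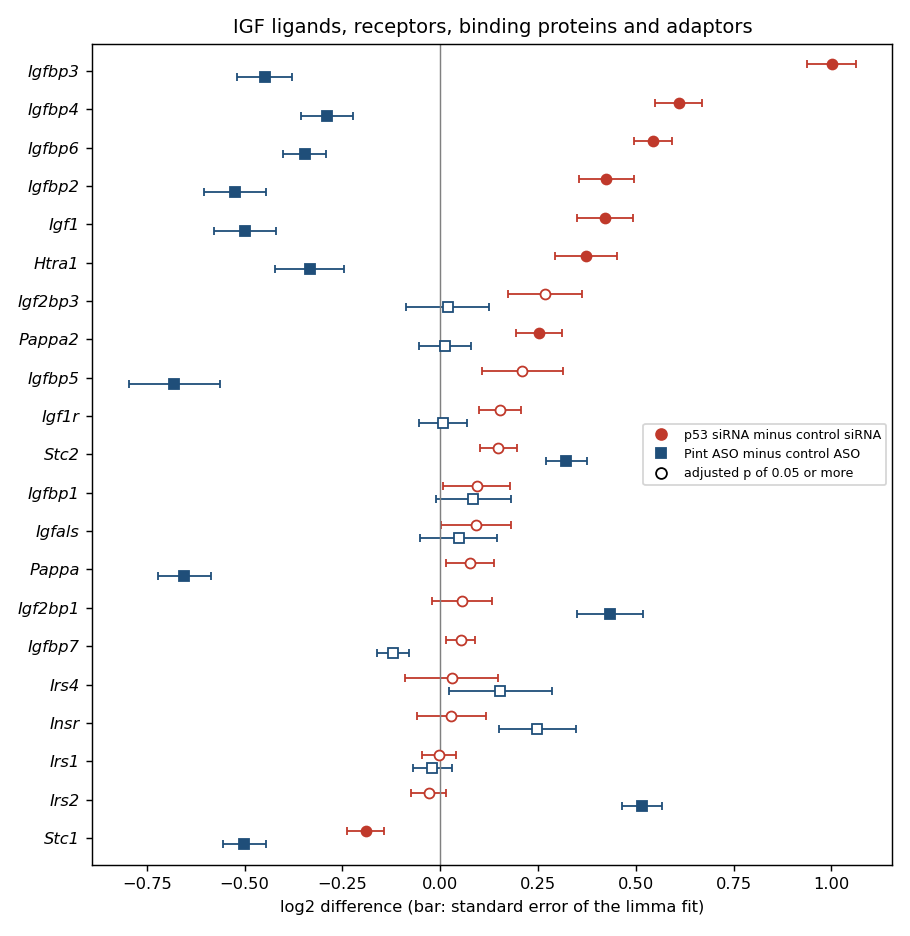
Log2 difference (x axis) of the 21 IGF signalling genes tested (y axis, ordered by the p53 siRNA value), for p53 siRNA minus control siRNA (circles) and Pint ASO minus control ASO (squares), with the standard error of the limma fit as bars and open symbols for an adjusted p of 0.05 or more. Igfbp3, Igfbp4, Igfbp6, Igfbp2, Igf1 and Htra1 lie above 0 with p53 siRNA and below 0 with Pint ASO, all with filled symbols.

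Other imprinted genes gave a mixed picture. Of 53 on the list 38 were tested, and 4 were higher and 8 lower with p53 siRNA, 2 higher and 7 lower with Pint ASO. All probe sets were called at 16.9% with p53 siRNA and 19.1% with Pint ASO, and the Pint ASO count lies near that share. With p53 siRNA the largest calls besides Dio3 were Gatm (-0.87, adjusted p = 0.000127), a creatine synthesis enzyme, Nnat (0.83, adjusted p = 5.26e-06), a membrane proteolipid of neurons and endocrine cells, and Peg10 (0.55, adjusted p = 0.000280), a gene derived from a retrotransposon and needed in the placenta. With Pint ASO they were Zdbf2 (0.58, adjusted p = 0.0445, a call lost under 18 of 24 alternatives), Ndn (-0.51, adjusted p = 0.0227, lost without control ASO 1 at 0.133 or control ASO 2 at 0.0621, with either replicate block at 0.0748 and 0.0538 and with the ASO arm fitted alone at 0.113), a growth-restraining protein, and Dcn (-0.48, adjusted p = 0.000131), a matrix proteoglycan. The median difference of the list was -0.0070 with p53 siRNA and -0.0047 with Pint ASO.

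Factors that set or keep imprints were measured as well, because imprinted expression rests on DNA methylation and repressive chromatin. All 20 were tested, and 5 were higher and 2 lower with p53 siRNA, 2 higher and 3 lower with Pint ASO. The share called over all probe sets was 16.9% with p53 siRNA and 19.1% with Pint ASO, and the Pint ASO count lies near it. With p53 siRNA, Uhrf1 (0.67, adjusted p = 6.35e-05) and Dnmt1 (0.40, adjusted p = 0.000819), which copy methylation at replication, and Cbx5 (0.47, adjusted p = 0.000510), a heterochromatin protein, were higher. Uhrf1 was also lower with control ASO than with control siRNA (-0.48, adjusted p = 0.00607), a call lost under 1 of 23 alternatives. Tet1, which oxidises methylated cytosine, fell by 0.71 with p53 siRNA (adjusted p = 2.91e-05) and by 0.41 with Pint ASO (adjusted p = 0.00174). With Pint ASO, Tet3 (0.58, adjusted p = 0.00119) and Dnmt3a (0.30, adjusted p = 0.00791) were higher and Hdac1 lower (-0.27, adjusted p = 0.00785), and the calls of Dnmt3a (0.0538) and Hdac1 (0.0749) were lost with the ASO arm fitted alone. The zinc finger protein Zfp57, its partner Trim28 and Ctcf were not called in either knockdown.

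For Meg3, Dlk1, Igf2 and H19 the genes with the most similar course over the 11 arrays were sought, by the mean absolute difference of values centred on each probe set's own mean. Nearest to Meg3 were Pappa (0.0571 log2 units), Synpo (0.0576) and Rcan2 (0.0630). Nearest to Dlk1 were Cd82 (0.0395), Lgmn (0.0443) and Sdc4 (0.0468), and nearest to Igf2 were Ctdsp1 (0.0289), Obsl1 (0.0315) and Pth1r (0.0325). Nearest to H19 were Fancd2 (0.0624), Enpp3 (0.0643) and Kif23 (0.0675) for probe set A and Gbp3 (0.0882), Cenpe (0.0884) and Cenpq (0.0935) for probe set B. These are descriptions over arrays of 4 groups, and the nearest of 26038 probe sets is close because so many were searched.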

How the data were processed

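Gene expression was measured on Affymetrix whole-transcript mouse arrays, 11 in all, from 300 ng of total RNA each, in the groups p53 siRNA (3), control siRNA (3), Pint ASO (3) and control ASO (2), taken from the labels. The main and supplementary methods of the study name different array models. The deposited values are log2 intensities that the authors made with RMA (background correction, normalization between arrays, summary per probe set), version not given in the sources used here. RMA compresses differences of dim probe sets. Array medians were 7.31 to 7.38, and the number of arrays limits the precision.

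Of 34760 probe sets, 21640 carry 1 gene symbol in the platform annotation, 1321 several and 11799 none, and genes were named only from the first kind, except H19. The test took 26038 probe sets, those with values over 6 on 2 or more arrays of any group. Group means were fitted over all arrays with limma 3.58.1 (R 4.3.3) and eBayes, with 7 residual degrees of freedom, and p-values were adjusted by Benjamini-Hochberg. The procedure was also run on simulated data with independent noise on each array. Those data hold no batches and no difference between the controls, so the run does not speak to either. For 1 probe set, an exact permutation test of 3 arrays against 3 cannot go below p = 0.1, so none is given. In lists the probe set with the highest mean stood for a gene.

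Genes were named by a rule. It takes all probe sets of the members, the targeted gene, up to 4 called genes per list and knockdown with the largest change, the 3 genes most similar to H19, Igf2, Meg3 and Dlk1, and genes of the members' clusters. Igf1, Htra1, Igf1r, Insr, Irs1, Mir666, Mir667, DQ267102, Zfp57, Trim28 and Ctcf fall outside it and were chosen after their values were seen. The members and lists were chosen with earlier results of these data known. No pairing by replicate number was assumed, since the deviations of same-numbered siRNA arrays were not positively correlated (-0.284, -0.181 and -0.0371). In the ASO arm they were positive by description numbers (0.420 and 0.375) and not by titles, and pairing there was not settled. Alternatives covered the filter, normalization, eBayes settings, array weights, arms fitted alone, replicate blocks, the threshold B over 3, the probe sets tested and each array left out. Counts of alternatives under which a call was lost leave out the threshold B over 3.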

Additional observations from a re-analysis of the deposited data

Results flagged for a closer look

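For the features below, the effect of Pint ASO (minus control ASO) and that of p53 siRNA (minus control siRNA) differed from each other by a test of the difference itself, in the fit over all 11 arrays (limma adjusted p under 0.05). Many of them were named because they changed much in 1 knockdown, so their number is a description. Each value that follows is the effect of Pint ASO minus the effect of p53 siRNA on the log2 scale. Among the growth genes it was -0.79 for Meg3, -0.72 for Dlk1, -0.66 for Mest, -0.44 for Peg3, -0.33 for Igf2 and 0.26 for Plagl1. The calls were lost under 12 of 23 alternatives for Igf2 and 8 of 23 for Plagl1. For H19 the values were -0.96 (probe set A) and -1.16 (probe set B), which are a description, since the p53 siRNA values by which these probe sets were chosen enter them. For Lncpint it was -1.23.

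Among the microRNA genes from Dlk1 to Dio3 it was -1.19 for Mir377, -0.94 for Mir382, -0.74 for Mir300, -0.70 for Mir134 and -0.62 for Mir323, with the call of Mir300 lost under 6 of 22 alternatives (adjusted p up to 0.110). Mir300 read 5.27 to 5.44 on Pint ASO arrays and passed the filter only through groups where it was higher, so its value is a description. The other imprinted genes gave 0.72 for Gatm, -0.36 for Dio3, -0.90 for Nnat, -0.57 for Peg10 and -0.56 for Dcn, with the call of Dio3 lost under 9 of 23 alternatives (adjusted p up to 0.0901). Of the IGF signalling genes, it was -1.45 for Igfbp3, -0.90 for Igfbp4, -0.89 for Igfbp6, -0.95 for Igfbp2, -0.89 for Igfbp5, -0.73 for Pappa and 0.55 for Irs2. Among the factors that set or keep imprints it was 0.30 for Tet1, -0.51 for Uhrf1, -0.45 for Cbx5, -0.39 for Dnmt1, 0.59 for Tet3, 0.28 for Dnmt3a and -0.40 for Hdac1, with the calls of Tet1 and Dnmt3a lost under 14 and 15 of 23 alternatives. Both effects are measured against different controls, and those controls differed in 4.02% of all probe sets. Flagged genes with a called difference between the controls include Meg3, Mest, Plagl1, Lncpint, Igfbp3, Igfbp4, Irs2 and Uhrf1. The groups hold at most 3 arrays, so no array was examined as an outlier.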

How the results depend on the processing

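Leaving out each array in turn gave 2 to 5 members higher and 0 to 1 lower with p53 siRNA (5 and 1 with all arrays, 3199 to 4467 probe sets called). It gave 1 higher and 2 to 3 lower with Pint ASO, 0 to 1 higher and 4 to 5 lower for the difference of the effects, and 0 to 2 higher and 0 to 1 lower between the controls, where 294 to 985 probe sets were called against 1046 with all arrays. At B over 3, 1021 probe sets and 0 members higher or lower were called with p53 siRNA, 812 and 0 members higher with Pint ASO, 941 with 0 members higher and 2 lower for the difference, and 155 with 0 higher and 0 lower between the controls. With each arm fitted alone 1890 probe sets and 0 members higher were called for Pint ASO. Median centring left 0 members higher in the difference. Between the controls, array weights left 1 member higher and 0 lower, no filter left 0 lower, an eBayes trend and the mean of the probe sets of a gene each gave 3 lower, and testing only probe sets with 1 symbol gave 2 lower. The cause of these changes was not tested.

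The replicate block, by the number in the titles or in the descriptions, gave 3422 or 3864 probe sets called with p53 siRNA, 3547 or 3958 with Pint ASO, 3686 or 4060 for the difference, and 371 or 465 between the controls, where 0 members stayed higher and 0 lower with either block. It ended the call of Cdkn1c with Pint ASO (adjusted p = 0.121 by titles and 0.0926 by descriptions). By titles it also ended that of Igf2 with p53 siRNA (0.0556), those of Igf2 and Plagl1 in the difference (0.0694 and 0.0639), which left 0 members higher there, and that of Lncpint between the controls (0.0665). It ended no other member call in the knockdown comparisons. Beyond the members, either block ended the calls of Ndn (0.0748 by titles and 0.0538 by descriptions) and Zdbf2 (0.117 and 0.0791) with Pint ASO. With p53 siRNA either block ended those of Airn (0.0994 and 0.088) and Mir323 (0.0723 and 0.0683). The block by titles also ended that of Mir134 (0.0582). In the difference either block ended those of Dio3, Tet1 and Dnmt3a, and that by descriptions ended Mir300 (0.0509). Between the controls either block ended those of Igfbp3, Irs2 and Phlda2, and that by titles ended Igfbp4. In the ASO arm the deviations of same-numbered arrays correlated at -0.0463 and -0.420 by titles and at 0.420 and 0.375 by descriptions. With 2 control ASO arrays these deviations are equal and opposite, so the 2 numberings are not separate evidence. Whether the ASO arrays were paired by description number was not settled, and the main fit assumes no pairs.

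Directions turned only for differences that were not called. With 1 array left out, the range was -0.0135 to 0.0472 for Airn, -0.20 to 0.030 for Igf2, -0.0959 to 0.14 for Klf14 and -0.13 to 0.0935 for Rtl1 with Pint ASO, and -0.0059 to 0.0788 for Meg3, -0.0946 to 0.0149 for Phlda2 and -0.0383 to 0.0253 for Plagl1 with p53 siRNA. Between the controls it was -0.0286 to 0.0534 for H19 probe set A, -0.0052 to 0.0598 for B, -0.13 to 0.0967 for Igf2 and -0.0105 to 0.0199 for Igf2r. Plagl1 with p53 siRNA was 0.0204 after median centring and 0.0116 after a second quantile normalization, Rtl1 with Pint ASO was 0.011 with array weights, Igf2 between the controls was 0.0004 after median centring and 0.0031 with the replicate block by titles, and H19 probe set B there was -0.0118 with that block.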
